A study of Mus musculus with 26 samples.

Results

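Formative stem (FS) cells were compared with epiblast stem cells (EpiSCs) grown in the medium named AFX, by the regions of open chromatin that peak lists of one cell type held and those of the other did not. The 12 mouse libraries used, of 26 in the series, were FS1 at passage 21, FS2 at passage 29, EpiSC_AFX1 at passage 14 and EpiSC_AFX2 at passage 16, with 3 libraries each. FS cells were kept in A3XR medium and the EpiSCs in AFX medium, so medium and cell type cannot be told apart. Each list was cut to its top 8044 peaks by −log10 p, 8044 being the length of the shortest list of the first set, and overlapping or touching peaks were merged into 18774 union regions. A region was called FS-only when at least 2 of 3 lists of FS1 and at least 2 of 3 of FS2 had a peak there (1 bp of overlap) and no EpiSC_AFX list did, and EpiSC_AFX-only by the same rule in the other direction. There were 114 FS-only regions (0.607% of all union regions) and 69 EpiSC_AFX-only regions (0.368%). The balance depended on list length: the same rule gave 77 and 384 in the lists as deposited, and 12 and 99 among peaks of −log10 q 5 or more. Presence chose these regions, so their split between the types is a description and carries no test.

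ATAC-seq marks open chromatin, because the Tn5 transposase inserts adapters where DNA is not wrapped in nucleosomes, mainly at active promoters and at enhancers. Pluripotent mouse cells pass from a naive state through a formative one, in which competence for the germ line and for the germ layers is acquired, to a primed state held by EpiSCs. As background, A3XR holds a low dose of activin A, the tankyrase inhibitor XAV939 and a retinoic acid receptor inverse agonist, and AFX holds activin A, FGF2 and XAV939. Activin acts through SMAD proteins, FGF2 through ERK, and XAV939 lowers Wnt signalling by keeping Axin stable. OTX2 is a transcription factor known for driving exit from the naive state.

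The 12 lists differed in length before they were shortened. FS1 lists held 23883 to 31263 peaks and FS2 lists 11796 to 14147, against 17701 to 27485 in EpiSC_AFX1 and 25641 to 29575 in EpiSC_AFX2. The lowest −log10 p kept was 5.18 to 5.64 in FS2, the authors' value within each list. FS2 therefore reached further down its own lists than the other lines did. The files give no read counts, so depth was unknown and no value here carries a counting interval. Each list came from 50000 cells. The labels number the libraries but do not say whether these were separate cultures, so each p measures only the spread between these libraries, and libraries of a line share that line.

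The sequences of a pair of start sites are given to show what was open: each was the first region of its kind, in the order used below, that covered the start of a protein-coding gene. The FS-only region at Dmc1, the meiotic strand-exchange recombinase, lay at chr15:79605013-79605516 (mm10). The EpiSC_AFX-only region at Col11a1, which encodes an alpha chain of type XI collagen, lay at chr3:114030117-114030657. Both covered the gene's start. The RefSeq windows of 300 bases (GRCm38.p6, 250 before the start and 50 after it, read 5′ to 3′ on the gene's strand) were chr15:79605060-79605359 on the minus strand for Dmc1 and chr3:114030290-114030589 on the plus strand for Col11a1. Capitals mark CG dinucleotides.
Dmc1: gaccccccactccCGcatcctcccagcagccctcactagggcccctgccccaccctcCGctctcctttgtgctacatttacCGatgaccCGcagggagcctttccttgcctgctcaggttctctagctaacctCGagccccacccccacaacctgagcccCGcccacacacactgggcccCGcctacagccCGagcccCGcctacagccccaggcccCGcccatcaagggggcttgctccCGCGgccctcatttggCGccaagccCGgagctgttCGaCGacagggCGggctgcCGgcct
Col11a1: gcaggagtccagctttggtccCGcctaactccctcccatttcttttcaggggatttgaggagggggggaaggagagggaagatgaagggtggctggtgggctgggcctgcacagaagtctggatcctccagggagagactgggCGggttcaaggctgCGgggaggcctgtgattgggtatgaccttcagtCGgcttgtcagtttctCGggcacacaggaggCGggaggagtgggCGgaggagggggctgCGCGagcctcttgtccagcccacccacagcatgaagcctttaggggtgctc
The Dmc1 window held 18 CG dinucleotides and the Col11a1 window 9, against a median of 7 over 32851 RefSeq windows (lower quartile 3, upper quartile 20). Neither window held any of 15 short motifs searched on both strands: octamer ATGCAAAT, SOX ACAATGG, OTX TAATCC, ZIC CAGCAGG, TEAD GGAATG, AP-1 TGANTCA, ETS CCGGAAG, T-box AGGTGTGA, TCF/LEF CTTTGAT, E-box CACGTG, KLF GGGCGTGG, FOX TGTTTAC, the GATA factor letters AGATAAG, the nuclear receptor direct repeat 1 and the CTCF core. These letters occur in 0.0396% to 14.7% of all the windows, and their absence says only that they are not in these 300 bases. The AP-1 and E-box letters read the same on both strands.

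The Dmc1 region had a peak in 6 of 6 FS lists, at percentile ranks of 46.2 to 78.9 (median 68.9, where 100 is the highest −log10 p of a list). No EpiSC_AFX list had it among its 8044 peaks. In the full lists, 1 of 3 EpiSC_AFX1 lists and 2 of 3 EpiSC_AFX2 lists held a lower peak there, no EpiSC_AF list and no ES list did, and 4 of 4 lists of epiblast-like cells (Rd2_EpiLC) did. The region at Col11a1 had a peak in 6 of 6 EpiSC_AFX lists, at ranks of 79.4 to 94.9 (median 89.9). No FS list had a peak there at any rank. It was also held by 3 of 3 EpiSC_AF lists, 3 of 3 ES lists, 4 of 4 Rd2_EpiLC lists and 2 of 2 Rd2_AFX lists, and by 1 of 2 Rd2_ES lists, so FS1 and FS2 were the lines without it in any list.

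Of the 114 FS-only regions, 24 were held by all 6 FS lists, 58 by 5 and 32 by 4. The 12 placed first (by number of lists, then by mean rank) were all held by 6 lists. The highest was 96.9 kb from Grm4, a metabotropic glutamate receptor gene, and covered the start of Gm10505, with ranks of 88.6 to 96.1 (median 95.5). Next came a region 87.7 kb from A430005L14Rik (ranks 88.9 to 96.5, median 94) and one 51.2 kb from Lmntd1 (80.8 to 95.5, median 93.2). The region 58.1 kb from Usp46, which encodes a deubiquitinating enzyme, ranked 65.9 to 97.7 (median 93.8), and no EpiSC_AFX list held it even at full length. The region 387 kb from Kazn, a gene for a cell junction protein, ranked 50.4 to 97.4 (median 95.3). Lower in order, with median ranks of 61.7 to 81.3, came regions near Pthlh (15.1 kb), Tex44 (39.4 kb), inside Stox2, at Dmc1, near Cartpt (16.4 kb), a neuropeptide gene, near Slc2a10 (27.6 kb), a glucose transporter gene, and near Nfatc2 (12.6 kb), an immune transcription factor gene. Ranks varied between libraries even in this group: the Cartpt region ran from 9.2 to 97.9 over the 6 FS lists.

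Of the 69 EpiSC_AFX-only regions, 10 were held by all 6 lists, 24 by 5 and 35 by 4. After Col11a1 came a region 0.932 kb from Mllt6, with ranks of 39.3 to 80.9 (median 68.1), and one 4.73 kb from Cfap45 (31.6 to 80, median 46.9). A region inside Ski, which encodes a corepressor of SMAD signalling, ranked 25.5 to 68.8 (median 55.5). Regions inside Akna, 47.8 kb from Sipa1l2, inside Galm, 251 kb from Skor2 and over a start of Echdc1 were held by 6 lists with median ranks of 11.5 to 44.4. The last of the 12 first were held by 5 lists: a region inside Tasp1, the protease gene for cleavage of MLL (median 49.6), and one 166 kb from Nrip1, a nuclear receptor corepressor gene (median 55.4). The EpiSC_AFX-only regions had lower mean ranks in the lists that held them (median over regions 28.2) than the FS-only regions (43.7).

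**Figure D1:**
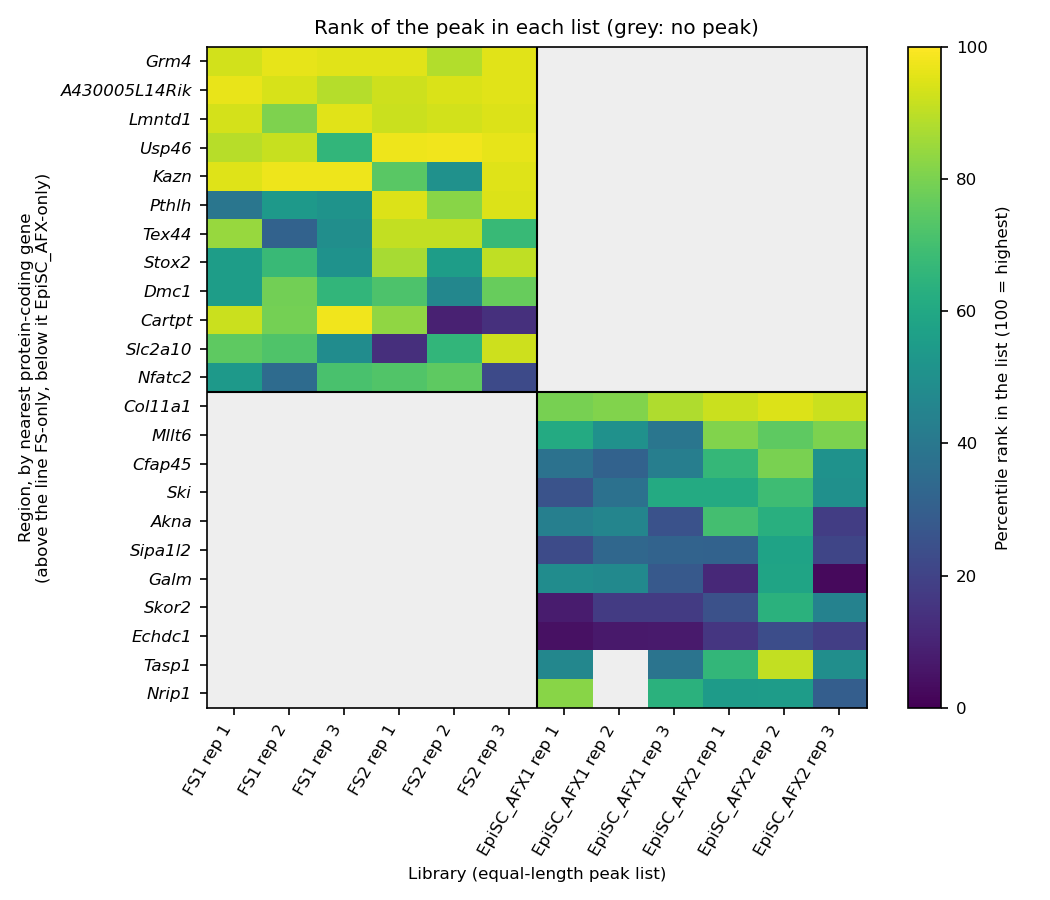
Percentile rank (colour, 0 to 100) of the peak in each of 12 equal-length lists, 1 row for each of the 12 first FS-only regions and of the first EpiSC_AFX-only regions, named by the nearest protein-coding gene. Grey cells are lists without a peak there; the Col11a1 row runs from 79.4 to 94.9 and the Echdc1 row from 4.4 to 23.6.

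Absence from the shortened lists was seldom absence from the full ones. Of the 114 FS-only regions, 15 had no peak in any full EpiSC_AFX list and 20 had one in all 6. Those without any lay 9.32 to 291 kb from A430005L14Rik, Usp46, Tex44, Nphp4, Ajap1 (2 regions), B4galnt4, Rftn1 and Irx5, the nearest genes, and inside Trub1, Acsl6, Ktn1, Acss1, Ncald and Adgrb2 (named because of this value, not by the rule for named regions). Of the 69 EpiSC_AFX-only regions, 3 (4.35%) had no peak in any full FS list, against 0.0739% of the other 2708 regions. The 3 included the Col11a1 start and the region 166 kb from Nrip1. Of the same 69, 56 (81.2%) had a peak in all 3 full FS1 lists, against 91% of the other 2708 regions. In all 3 full FS2 lists, which are the short ones, 2 (2.9%) had a peak, against 31.6% of the other 2708. The rule allowed the 114 regions no EpiSC_AFX peak and the 69 regions no FS peak in the shortened lists. It set no such limit on the 2708. The part of list length and of the rule in these shares, the FS2 share included, was not tested.

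Just outside the rule, 123 regions met it for the FS lines but were also held by 1 EpiSC_AFX list, and 159 met it for the EpiSC_AFX lines but were also held by 1 FS list. Regions held by both lines of FS numbered 5150, of which 3336 were in all 6 EpiSC_AFX lists. Those held by both EpiSC_AFX lines numbered 5792, of which 2633 were in all 6 FS lists. A two-sided Fisher's exact test of presence in each union region, with Benjamini-Hochberg adjustment over all 18774, called no region (0%). Its lowest p, 0.00216, is the smallest that 6 against 6 lists allow, and the lowest adjusted p was 1. Over 18774 tests, a region at this floor could pass only together with many others at it. The test also used the presence values that chose the regions, so no conclusion is drawn from the 0 calls. At an unadjusted p under 0.05 there were 156 regions (0.831%), 99 with more FS lists and 57 with more EpiSC_AFX lists.

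The order of shared peaks gave no called difference. For the 2333 regions with a peak in all 12 lists, the percentile rank was compared by limma, and 0 regions passed an adjusted p of 0.05 (0%; lowest adjusted p 0.224), while 243 had an unadjusted p under 0.05 (10.4%). Of these, 82 ranked higher in FS and 161 higher in EpiSC_AFX. The median standard error of a difference was 9.33 percentile points and the median SD within a line 13.2.

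Regions of both kinds lay away from gene ends more often than the other regions held by 4 to 6 lists. Those, called comparable here, were chosen by number of lists alone, not by peak rank or width. The part of rank and width in the difference in position was not tested. Of the FS-only regions, 16.7% were no more than 1 kb from the edge of a protein-coding gene, as were 26.1% of the EpiSC_AFX-only regions and 51.7% of the other 2708 regions held by 4 to 6 of the 12 lists. The share over 50 kb from every gene was 21.1%, 17.4% and 6.76% in that order, and the share inside a gene and over 1 kb from its ends was 27.2%, 29% and 25%. The gene table gives whole gene spans, so exons and introns were not told apart. A listed transcription start was covered by 18 FS-only regions (15.8%) and 11 EpiSC_AFX-only regions (15.9%), against 43.7% of the comparable regions. The FS-only group included the starts of Mta2, a subunit of the NuRD complex, Prickle1, a planar cell polarity gene, Hdlbp and Sco1. The EpiSC_AFX-only group included Mycl, a MYC family gene, Atf7ip, Pcgf2, a Polycomb ring finger gene, and Vps26c (a choice of examples made after the starts were seen). Median width was 338.5 bp for FS-only and 428 bp for EpiSC_AFX-only regions, against 427.5 bp for the comparable regions and 378 bp for all union regions.

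The 14 lists not used to choose the regions are described next. Among EpiSC_AF lists (EpiSCs in AF medium at passage 22), 85.5% to 94.2% of EpiSC_AFX-only regions had a peak, against 36% to 55.3% of FS-only regions and 76.5% to 91.8% of the comparable regions. In the Rd2_AFX lists, EpiSCs in AFX from the later set, the shares were 65.2% and 59.4% of EpiSC_AFX-only regions, 24.6% and 15.8% of FS-only regions, and 50.9% and 48.6% of comparable ones. In each of these 5 EpiSC lists the EpiSC_AFX-only share was above the comparable regions and the FS-only share below them. Rd2_EpiLC lists (cells induced from ES cells over 2 days) held 16.7% to 57% of FS-only, 42% to 88.4% of EpiSC_AFX-only and 27.4% to 79.1% of comparable regions, in the same order in each of 4 lists. ES lists of the first set differed less, at 22.8% to 27.2%, 24.6% to 31.9% and 25% to 30.9%. The Rd2_ES lists, of only 471 and 2576 peaks, held 0.9% and 2.6% of FS-only regions. They held 0% and 11.6% of EpiSC_AFX-only and 0.9% and 6.5% of comparable regions. The FS-only regions were not the more frequent kind in any of the 4 EpiLC lists. FS-only and EpiSC_AFX-only regions also differed in rank, width and nearness to gene ends. Whether the order in EpiLC lists bears on the formative state was not tested. The Rd2 lists were processed differently, so shares are compared within a list, and no test was made, as regions are not replicates.

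**Figure D2:**
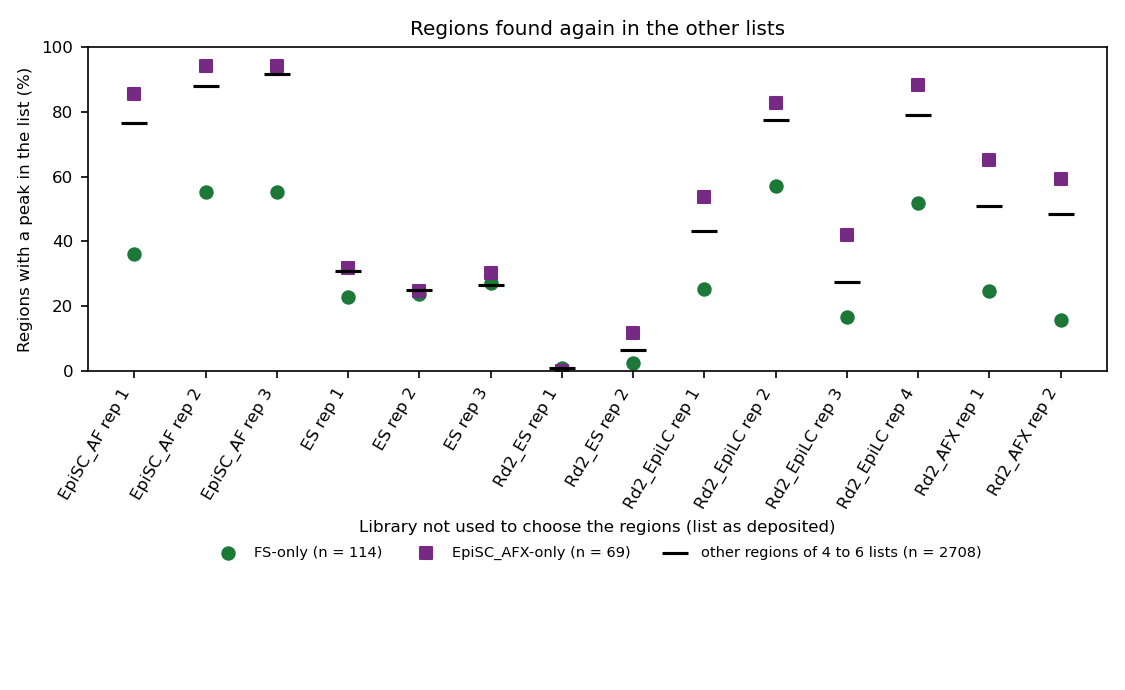
Percent of regions with a peak in each of 14 lists that played no part in choosing them, lists as deposited, for FS-only regions (circles), EpiSC_AFX-only regions (squares) and the other 2708 regions of 4 to 6 lists (bars). In the EpiSC_AF lists the squares lie at 85.5% to 94.2% and the circles at 36% to 55.3%.

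Few genes of the gene lists were neighbours of either kind of region, and few of all genes were. The lists cover pluripotency states, mesendoderm, neural and adhesion genes, signalling pathways and markers of other cell types. Of 153 list genes, 3 had a region of either kind within 20 kb (1.96%), against 200 of 21900 protein-coding genes (0.913%). An EpiSC_AFX-only region lay 1.28 kb from Otx2 at chr14:48655024-48655501 (5 lists, ranks 9.3 to 42.7, median 16.7), and 4 of 6 full FS lists also held a peak there. Another lay 4.77 kb from Gbx2, a homeobox gene of the anterior hindbrain, at chr1:89922684-89923195 (5 lists, ranks 12.5 to 44.3, median 34.2), with 3 of 6 full FS lists. An FS-only region lay 15.8 kb from Col1a1, a fibroblast collagen gene, at chr11:94920157-94920435 (5 lists, ranks 51 to 75.7, median 69.1), with 2 of 6 full EpiSC_AFX lists. Inside Otx2 itself a region at chr14:48658767-48659298 was held by all 3 FS2 lists and by no other list of the series, FS1 included.

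Formative and early post-implantation genes (12 genes) had a peak within the gene or 20 kb on each side in more EpiSC_AFX than FS lists for 9 genes and in more FS lists for 0, with 3 equal. Their median difference was −1 list, against 0 over 21900 protein-coding genes, of which 20.7% had more EpiSC_AFX lists and 18.9% more FS lists. Of the 21900, 6910 had no peak in any of the 12 lists and 4711 had one in all 12, so these could not differ. Of the 12 formative genes, 0 and 3 were of these kinds, so the shares are not like for like. Each FS1 list held a peak at 7 of the 12 genes and FS2 lists at 5 to 8, against 9 to 11 in EpiSC_AFX1 and 9 to 10 in EpiSC_AFX2, so the types did not overlap. In the full lists the numbers were 11 to 12 in both types. Dnmt3b, a de novo DNA methyltransferase gene, and Tcf15 were each at 3 FS1, 0 FS2 and 6 EpiSC_AFX lists. Dnmt3a, Etv4 and Etv5 were at all 12. A Fisher's exact test for each of 21900 genes called none after Benjamini-Hochberg adjustment (0%), and 71 had an unadjusted p under 0.05 (0.324%). Its lowest p was the same floor of 0.00216, so no conclusion is drawn from the absence of calls.

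Most genes that differed in the pathway lists were in more EpiSC_AFX lists, except for retinoic acid, but the libraries of the types overlapped. Over all 21900 protein-coding genes, with those that could not differ, 20.7% were in more EpiSC_AFX lists and 18.9% in more FS lists. FGF and ERK genes were in more EpiSC_AFX lists for 11 of 18 (61.1%) and in more FS lists for 2 (11.1%). Nodal and activin genes were in more EpiSC_AFX lists for 9 of 16 (56.2%) and in more FS lists for 2 (12.5%). The numbers were 4 and 0 of 8 core pluripotency genes (50% and 0%) and 9 and 4 of 18 Wnt genes (50% and 22.2%). The number of genes with a peak per library was 7 to 11 in FS and 10 to 14 in EpiSC_AFX for FGF and ERK, 7 to 11 and 8 to 14 for Nodal and activin, 3 to 7 and 5 to 8 for core pluripotency, and 9 to 11 and 10 to 13 for Wnt. Members that differed by 4 lists or more included Nodal, the ligand, and Tdgf1, its coreceptor, each in 1 FS and 5 EpiSC_AFX lists. Smad7, an inhibitory SMAD, was in 0 and 4, and, outside the pathway, Gbx2 was in 2 and 6. These genes were named for that difference, so no p is given for them. None was called after adjustment over all genes. Retinoic acid genes went the other way, with 9 of 18 in more FS lists (50%) and 1 in more EpiSC_AFX lists (5.56%). Rarb, a retinoic acid receptor gene, was in 6 FS and 2 EpiSC_AFX lists (named for that difference, and not called), through an intragenic region at chr14:16447611-16447944 that 5 of 6 full EpiSC_AFX lists also held. Crabp2, a retinoic acid binding protein gene, was in 6 and 3. The number of retinoic acid genes with a peak was 4 to 5 in FS1 and 7 to 10 in FS2, against 3 to 4 in EpiSC_AFX1 and 3 to 5 in EpiSC_AFX2, and in the full lists 16 to 17, 8 to 14, 15 to 17 and 15 to 17. FS1 therefore overlapped EpiSC_AFX, and the full FS2 lists stood below it.

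Naive genes (14) were in more EpiSC_AFX lists for 3 and in more FS lists for 1 (21.4% and 7.14%). In the same order the numbers were 5 and 4 of 16 primed and mesendoderm genes (31.2% and 25%) and 3 and 1 of 10 neural genes (30% and 10%). For adhesion and epithelial genes they were 5 and 4 of 13 (38.5% and 30.8%). Among markers of other cell types, primitive endoderm genes were in more EpiSC_AFX lists for 2 and in more FS lists for 3 of 8 (25% and 37.5%, against 20.7% and 18.9% of all genes), trophoblast genes for 1 and 1 of 6 (16.7% each) and fibroblast genes for 2 and 0 of 8 (25% and 0%). Libraries held a peak at 2 to 4 primitive endoderm genes in FS and 1 to 5 in EpiSC_AFX, at 1 to 3 trophoblast genes in both, and at 2 fibroblast genes in FS and 2 to 3 in EpiSC_AFX.

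In a stretch of chromosome 4, nearly all regions of the 12 lists were held by FS lists alone. It ran over 1.47 Mb from chr4:152491591, inside the ciliary transition zone gene Nphp4, to chr4:153956882, at the edge of A430005L14Rik, with Ajap1, an adherens junction protein gene, inside it (chosen after its values were seen). The edges of the stretch are the outer ends of adjoining gaps between peaks of the full EpiSC_AFX lists. Low EpiSC_AFX numbers inside it therefore follow in large part from that choice. Of the 45 union regions there in the full lists, 43 were held by FS lists alone, 2 by both types and 0 by EpiSC_AFX alone. FS1 lists held 32, 27 and 33 peaks in the stretch and FS2 lists 9, 6 and 12, against 1 or 2 in each EpiSC_AFX list. No EpiSC list of any kind held more than 3 peaks there and both Rd2_AFX lists held 0, while ES lists held 2 to 4 and Rd2_EpiLC lists 2, 10, 5 and 16, the last above every FS2 list. Of the regions, 20 were in all 3 FS1 lists and no EpiSC_AFX list, and 10 were in at least 4 FS lists and no EpiSC_AFX list. A single region at chr4:153152972-153153289 was held by every list of the first set. The FS-only regions of the stretch were the one 87.7 kb from A430005L14Rik at chr4:153868968-153869503, one 87 kb from Nphp4 (chr4:152650231-152650507) and 2 at 291 and 136 kb from Ajap1 (chr4:153081928-153082578 and chr4:153236719-153237026), and no full EpiSC_AFX list held any of them.

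**Figure D3:**
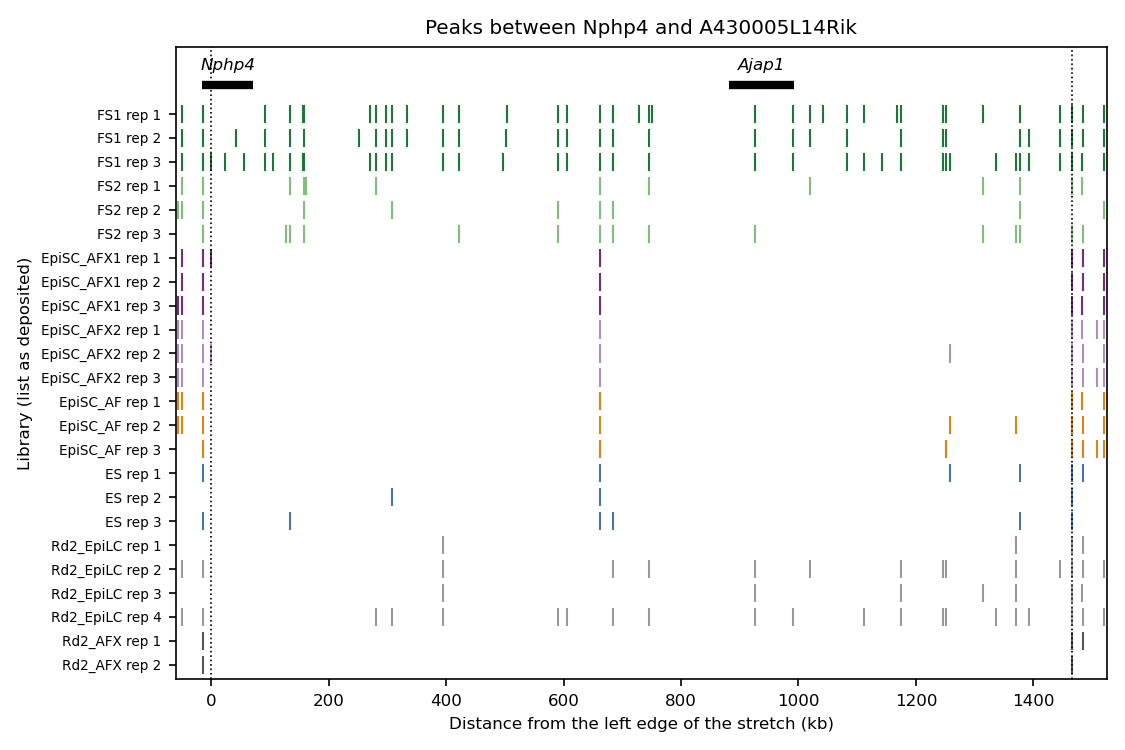
Position of every peak (vertical mark) in 24 full lists, 1 row per library, as distance in kb from the left edge of the chromosome 4 stretch; dotted lines are its edges and black bars the genes Nphp4 and Ajap1. FS1 rows hold 27 to 33 marks between the dotted lines, FS2 rows 6 to 12 and EpiSC_AFX rows 1 or 2.

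To place that stretch against the genome, peaks were counted in windows of 500 kb, with limma on log2(peaks + 0.5) scaled to list length, a comparison added after the data were seen. At equal list length 1478 windows had a mean of at least 2 peaks, and 6 had more peaks in FS (0.406%) and 1 more in EpiSC_AFX (0.0677%) at an adjusted p under 0.05. In the full lists 3070 windows passed the minimum, with 10 higher in FS (0.326%) and 6 higher in EpiSC_AFX (0.195%). Among the 6 were windows starting at 103 Mb of chromosome 10, 115.5 of chromosome 3, 141.5 of chromosome 6 and 108 of chromosome 7. Their FS means were 1.5, 0.833, 0.833 and 0.667 peaks and their EpiSC_AFX means 6.17, 5.33, 5 and 4.67. They passed the minimum only through the EpiSC_AFX lists. The windows count the same peaks that chose the FS-only and EpiSC_AFX-only regions, so the called ones are described with no p. At equal length the window chr4:153000001-153500000 held 4, 5 and 4 peaks in FS1 and 2, 2 and 4 in FS2, and 1 in each of 6 EpiSC_AFX lists. In the full lists the window before it, chr4:152500001-153000000, held 12, 12 and 14 peaks in FS1, 4, 2 and 4 in FS2 and 0 in every EpiSC_AFX list. Both windows, and the one described next, passed the minimum only through the FS lists.

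At equal length chr19:57000001-57500000, with Trub1, a tRNA pseudouridine synthase gene, and Ablim1, held 4, 4 and 5 peaks in FS1 and 5, 4 and 4 in FS2, against 2 in each EpiSC_AFX1 list and 1, 1 and 2 in EpiSC_AFX2. As deposited it held 9, 7 and 12, then 7, 5 and 5, against 6, 9 and 8, then 7, 12 and 7, so the types overlapped and it was not called. The windows chr3:54500001-55000000 and chr5:74000001-74500000 had 3 or 4 peaks in each FS list and 2 in each EpiSC_AFX list at equal length, a difference of 1 peak in nearly every list. Their means in the full lists were 5.33 in both types, and 4.5 in FS against 3.83 in EpiSC_AFX, and neither was called. At equal length they were not called with the line as a correlated block either, and they were called in 7 of 12 runs without 1 library; the losses came without EpiSC_AFX1 replicate 2 or 3 or any EpiSC_AFX2 library.

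**Figure D4:**
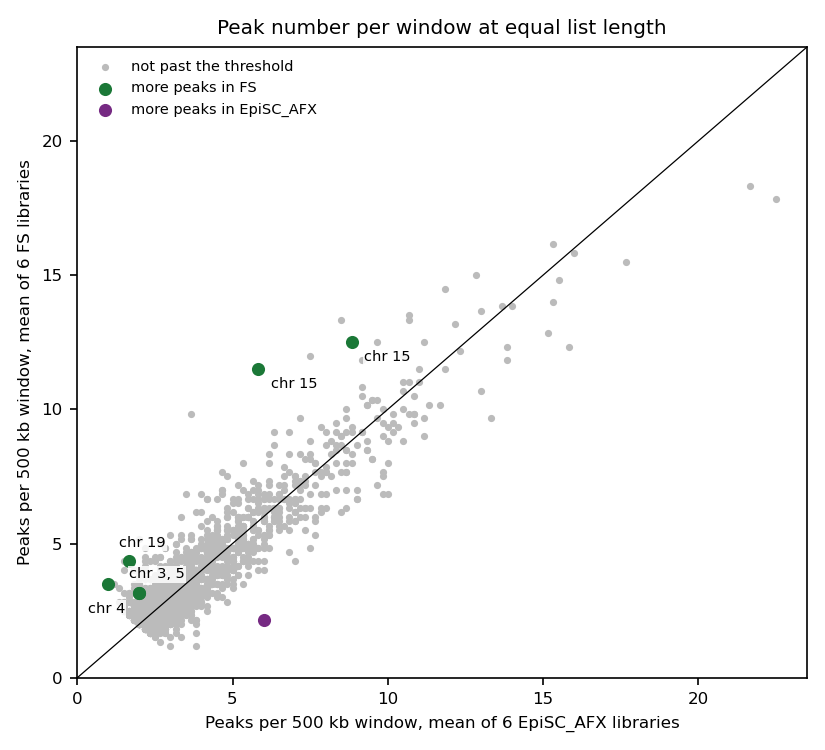
Mean peak number per 500 kb window in the 6 FS libraries (vertical axis) against the 6 EpiSC_AFX libraries (horizontal axis) at equal list length, 1 point per window, with the line of equality. The 6 green windows had more peaks in FS and the 1 purple window more in EpiSC_AFX.

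Chromosome 15 carried 16 of the 114 FS-only regions (14%), against 4.28% of the comparable regions, and the remaining 2 windows called higher in FS. These were chr15:79500001-80000000, which holds Dmc1 (9, 12 and 11 peaks in FS1, 12, 12 and 13 in FS2, 6 in each EpiSC_AFX1 list and 8, 6 and 3 in EpiSC_AFX2), and chr15:101000001-101500000, which holds the sodium channel gene Scn8a and the activin receptor gene Acvr1b (11, 12 and 11, then 16, 12 and 13, against 8 or 9). In the full lists the mean was 19.7 peaks in FS and 18.7 in EpiSC_AFX for the first and 21.3 and 20.7 for the second, and neither was called. Nor was either called at equal length with the line as a block, and each was called in 3 of 12 runs that left out 1 library: the first without FS1 replicate 1 or EpiSC_AFX2 replicate 1 or 3, the second without FS1 replicate 1 or 3 or FS2 replicate 1. Other windows of chromosome 15 were called higher in FS in the full lists, those starting at 83.5, 95.5, 98, 99.5 and 101.5 Mb. None of them was called there with the line as a block, and those at 83.5 and 95.5 Mb were called in 12 of 12 runs without 1 library. Before scaling to list length, the one at 83.5 Mb held 22, 19 and 17 peaks in FS1 and 7, 6 and 7 in FS2. EpiSC_AFX1 lists held 5, 7 and 10 there and EpiSC_AFX2 lists 9, 8 and 8. Of all equal-length peaks, FS2 lists had 5.86% to 6.13% on this chromosome, FS1 lists 4.34% to 4.54%, EpiSC_AFX1 lists 3.95% to 4.31% and EpiSC_AFX2 lists 3.9% to 3.97%. FS2 also had 1.03% to 1.18% of its peaks on the X chromosome, against 1.86% to 2.6% in the other 3 lines. The part of these shares in the chromosome 15 results was not tested, and peak lists do not show copy number, so more copies of a chromosome and more open regions on it cannot be told apart. On chromosome 3, which held 8 of the 69 EpiSC_AFX-only regions (11.6%, against 5.1% of the comparable regions), EpiSC_AFX1 lists had 5.37% to 5.46% of their peaks, against 4.54% to 5% in EpiSC_AFX2 and 4.45% to 4.7% in FS, and the part of that share was not tested either.

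Around Col11a1 the full FS lists had no peak over 960 kb, which was not the longest such gap. There were 186 gaps between FS peaks that held 2 or more EpiSC_AFX regions with at least 1 in both EpiSC_AFX lines, and 7 of them were longer than this one, up to 1469 kb; 27 gaps between EpiSC_AFX peaks held FS regions by the same measure. Between chr3:113630317 and chr3:114590171, with Col11a1 as its one protein-coding gene, no FS list had a peak at any rank (chosen after its values were seen). EpiSC_AFX1 lists held 2, 2 and 6 peaks there and EpiSC_AFX2 lists 3, 7 and 5, in 10 union regions. Only the start of Col11a1 was held by all 6 of them. EpiSC_AF lists held 1 to 7, ES lists 3 each and Rd2_EpiLC lists 1 to 5. In the first set, FS1 and FS2 were the lines with none.

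**Figure D5:**
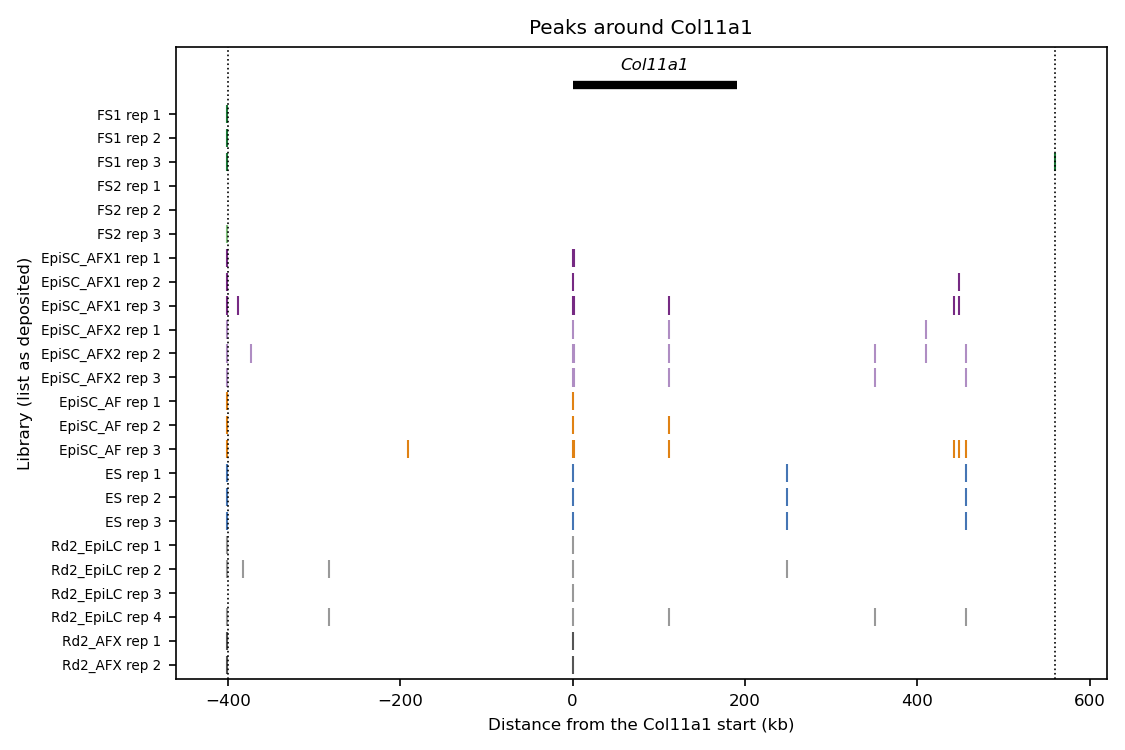
Position of every peak in 24 full lists around Col11a1, as distance in kb from its start, 1 row per library; dotted lines are the edges of the 960 kb without a peak in FS1 or FS2. The mark at 0 is present in all 6 EpiSC_AFX rows and in no FS row.

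The shortened lists as a whole differed little between the types. The share of peaks over 50 kb from every gene was 5.36% ± 0.169 in FS1, 6.3% ± 0.104 in FS2, 5.02% ± 0.0626 in EpiSC_AFX1 and 5.96% ± 0.906 in EpiSC_AFX2 (SD, n = 3 each), a difference between the types of 0.34 points (two-sided exact permutation p = 0.407, adjusted p = 0.407 over 3 measures). The share inside a gene and over 1 kb from its ends was 21.8% ± 0.0939, 23.4% ± 0.87, 21.7% ± 0.49 and 21.9% ± 0.313 in the same order (0.847 points higher in FS, exact permutation p = 0.0909, adjusted p = 0.146). Median peak width was 364 ± 10.1 bp, 258 ± 13.6, 346 ± 29.1 and 378 ± 7 bp, with a difference of −51 bp (exact permutation p = 0.0974, adjusted p = 0.146). Leaving out 1 library moved these differences to 0.223 to 0.641 points (the highest without EpiSC_AFX2 replicate 2, exact permutation p = 0.0455, adjusted p = 0.13), 0.494 to 1.03 points (the lowest without FS2 replicate 2) and −64 to −37.2 bp. None passed after adjustment, and on width FS1 lay among the EpiSC_AFX lines while FS2 lay below every other list.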

How the data were processed

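ATAC-seq peaks were called for each library by the authors and deposited as broadPeak lists. Trim Galore, Bowtie, Picard and MACS2 and the genome build mm10 are named in the submitters' processing notes, without roles or versions. Each deposited peak carries the authors' fold enrichment (a ratio), −log10 p, −log10 q and a score; these served only to rank or filter peaks within a list, and the score was not used. The members and gene lists were chosen with earlier results of these data known.

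Lists were cut to 8044 peaks by −log10 p and merged with Python 3.11.15. Named regions were the 12 of each kind held by most lists (ties by mean rank), those within 20 kb of a list gene, and list genes differing by 4 lists or more. Gene names came from GRCm38.p6 (RefSeq), which shares coordinates with mm10, and all 153 list genes matched. Presence was tested with Fisher's exact test, ranks and windows with limma 3.58.1 (trend), list measures with exact permutation over 924 assignments, with Benjamini-Hochberg adjustment and a threshold of 0.05. No pair of libraries of a line shared over 0.054% of peaks with identical coordinates. In simulated data of 1478 windows, limma recovered 37% of 200 windows changed 2-fold and 100% changed 4-fold, with 2 and 5 false calls. The counts were independent Poisson draws without a line effect. Real windows had a correlation within lines of 0.125, so these rates may be too high for them. Alternatives were other rankings, list lengths, overlaps, blocks and left-out libraries. Promoter windows on chromosome 18 were not used here, and a few named regions and 1 window are not reported here.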

Additional observations from a re-analysis of the deposited data

Results flagged for a closer look

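In 4 of 18 groups of 6 libraries checked for a value far from the rest, 1 library stood apart. Of the 4, 3 were window counts with tied values, where a chance rate of about 1 in 20 need not hold. No excess over chance is therefore read from them. The share of peaks over 50 kb from every gene was 7% in EpiSC_AFX2 replicate 2, above the other EpiSC_AFX libraries. In the chromosome 15 window of Scn8a, EpiSC_AFX1 replicate 3 had 8 peaks where the other EpiSC_AFX libraries had 9. In the chromosome 3 window at 54.5 Mb, FS1 replicate 3 had 4 peaks where the other FS libraries had 3, and in the chromosome 5 window at 74 Mb FS2 replicate 1 had 4 against 3. The last 3 are differences of 1 peak.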

How the results depend on the processing

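Library numbers did not pair the samples: none of 18 same-number pairs correlated over 0.1 (−0.0598 to 0.0652), and 6 of 12 libraries were closest to their own number. With the replicate block, windows higher in FS numbered 2 in place of 6, the window higher in EpiSC_AFX remained 1 in number, and 0 regions were called by rank. The 114 FS-only regions became 77 in the lists as deposited, 12 when only peaks of −log10 q 5 or more were kept, where FS2 lists keep 1238 to 2144 peaks, 64 with the 5000 highest peaks, and 24 when all 3 lists of both lines were required. The 69 EpiSC_AFX-only regions became 384 in the lists as deposited, 99 with −log10 q 5 or more and 10 when all 3 lists were required. Leaving out 1 library gave 67 to 141 FS-only and 28 to 110 EpiSC_AFX-only regions, partly by construction, since a line with 2 lists then needs both. FS-only regions fell to 67 to 72 without FS1 replicate 2 or any FS2 library. EpiSC_AFX-only regions fell to 28 to 44 without any EpiSC_AFX library and rose to 107 and 110 without FS1 replicate 1 or 3. Windows higher in FS numbered 2 with the line as a correlated block, 1 by fold enrichment, 10 in the lists as deposited (3 with the line as a block), 10 with windows moved by 250 kb, and 2 to 9 without 1 library, falling to 2 without EpiSC_AFX1 replicate 2 or 3 or EpiSC_AFX2 replicate 2. Windows higher in EpiSC_AFX numbered 6 as deposited, 0 by fold enrichment, 0 with windows of 1000 kb and 1 to 2 without 1 library. The difference in distal share was −0.00414 points by fold enrichment, −1.13 as deposited and −0.0663 at a distance of 100 kb, and −0.601 for FS1 against EpiSC_AFX2 and 1.28 for FS2 against EpiSC_AFX1; that in intragenic share was −1.55 as deposited. The exact permutation test gave an adjusted p of 0.234 to 1 for these, apart from the 2 pairs of lines, which were not tested. Depth was unknown, so the limit it sets could not be given.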
